A study of Mus musculus with 4 samples.

Results

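S phase basal keratinocytes are the proliferating cells of the innermost epidermal layer while they copy their DNA. They were taken here from single-cell RNA sequencing of sorted mouse embryonic epidermis by their messenger RNA alone. A barcode was kept with at least 2000 detected genes and less than 10% mitochondrial unique molecular identifiers (UMIs, each standing for 1 captured RNA molecule), and marker genes were summed as UMIs per 10000 UMIs of the cell. A basal keratinocyte had at least 50 for Krt5, Krt14 and Krt15 together, under 20 for Krt1 and Krt10 together, and under 2 for each of 3 sets of hair follicle genes (Shh, Wif1 and Lhx2; Dkk4, Fgf20 and Sp5; Pthlh, Tafa1 and Krt79). A basal cell was called in S phase with at least 2 for Rrm2, Clspn, Cdc6, Ccne1 and Ccne2 together and under 5 for Ccnb1, Cenpf, Ube2c, Plk1 and Aspm together. This left 1541 S phase cells of 11221 cells past the filters: 412 and 414 from the Ctrl embryos and 366 and 349 from the TKO embryos. They were compared with 1429 basal cells at or above the limit for the second set (called G2 and mitotic cells) and 2538 basal cells below both limits (called other basal cells).

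The series holds 4 libraries, each from sorted Epcam+ and α6-integrin+ skin cells of 1 embryo, labelled E16.5. All embryos carried floxed Suv39h1 (Suv39h1 f/f) and floxed Setdb1 (Setdb1 f/f), lacked Suv39h2 (Suv39h2-/-) and were exposed to tamoxifen. The Ctrl embryos had no Cre (K14CreERT2-, n = 2) and the TKO embryos carried K14CreERT2 (K14CreERT2+, n = 2). The keratin 14 promoter drives this tamoxifen-dependent Cre in basal keratinocytes. Suv39h1, Suv39h2 and Setdb1 encode histone methyltransferases that place H3K9me3, a mark of silenced heterochromatin, so Suv39h2 was missing from both groups and the comparison is of Suv39h1 and Setdb1 deletion on that background. The study lists deletion in the litter used for sequencing as mosaic, so the TKO libraries may hold cells that kept functional alleles, and its litter list gives an earlier embryonic day than the labels. The study describes its controls in general as Cre-negative embryos of the same litters, while the labels tie no library to a litter, and with 2 libraries a group the p-values measure only the spread between these libraries.

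In S phase each replication origin fires once. The origin recognition complex, CDC6 and CDT1 load the MCM helicase in G1, cyclin E with CDK2 triggers firing, and the sliding clamp PCNA, its loader and the DNA polymerases then copy both strands. Ribonucleotide reductase supplies deoxynucleotides, and chaperones pack the new DNA with histones. Many of the genes involved are controlled by E2F transcription factors, which are released from retinoblastoma proteins when cyclin D and cyclin E kinases are active. The CDK inhibitor p21, encoded by Cdkn1a and a target of p53, opposes those kinases. In embryonic epidermis such dividing basal cells feed both the basal layer and the stratified layers above it.

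Promoter sequences are shown for the genes that define S phase here because E2F-type words are the letters shared by many replication genes. RefSeq windows from 250 bases before to 50 bases after each start site (build GRCm38.p6, an earlier build than the GRCm39 of the count files) were searched on both strands for TTTCCCGC, TTTCGCGC, TTTGCCGC and TTTGGCGC, which can overlap one another. At least 1 word stood in the windows of 704 of 27025 genes (2.61%). Among the genes used to choose the cells, 2 of the 4 with a window held one, Cdc6 and Clspn. So did 7 of 14 origin licensing genes, 6 of 22 fork and polymerase genes, 4 of 13 chromatin assembly genes and 0 of 11 nucleotide supply genes. The word and its surroundings are given for both gate genes, for the clamp-associated factor Pclaf (the 1 of 7 leading S phase genes with a window that held a word), and for helicase and origin genes, 5′ to 3′ on the strand of the gene, with the word in capitals.
Cdc6 (chr11:98908002-98908031, plus strand): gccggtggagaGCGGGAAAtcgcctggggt
Clspn (chr4:126556990-126557019, plus strand): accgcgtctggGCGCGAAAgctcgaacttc
Pclaf (chr9:65890307-65890336, plus strand): gcttggagcgcGCGGGAAAgagacccattt
Mcm5 (chr8:75109345-75109374, plus strand): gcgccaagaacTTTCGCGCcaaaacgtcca
Mcm6 (chr1:128359734-128359763, minus strand): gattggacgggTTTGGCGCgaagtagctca
Mcm7 (chr5:138171849-138171878, minus strand): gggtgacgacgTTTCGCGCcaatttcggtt
Orc1 (chr4:108579416-108579445, plus strand): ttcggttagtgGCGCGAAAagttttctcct
Gins3 (chr8:95633507-95633536, plus strand): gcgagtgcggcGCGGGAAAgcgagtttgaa

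Among genes of G2 and mitosis outside the gate, 1 of 17 held an E2F-type word (5.88%), and other letters were common. The core of the cell cycle homology region, TTTGAA, was in the windows of 20.2% of all genes and in 12 of these 17 (70.6%). It was also in 5 of 14 origin licensing genes, 4 of 13 chromatin assembly genes, 2 of 22 fork and polymerase genes and 0 of the 4 S phase gate genes. It is shown for the 3 genes of the G2 and mitosis list that rose in TKO S phase cells, with TTTGAA in capitals. A match is a description of these letters and not a bound site.
Ccnb2 (chr9:70421534-70421561, minus strand): gcggcgcggtaTTTGAAtcgcggaccgg
Cenpa (chr5:30666891-30666918, plus strand): gcgggtgatttTTTGAActgctggcgac
Cdc20 (chr4:118437345-118437372, minus strand): gacagttgggtTTTGAAggagccaatga

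The S phase cells were deeply sequenced and deeper in TKO. Their median UMIs per cell were 23345.5 and 20009.5 in Ctrl and 31183 and 28020 in TKO. Summed UMIs were 10274695, 8869324, 12425606 and 10457028. Median mitochondrial shares were 2.65, 2.20, 1.88 and 2.18%. A doublet caller marked 9, 11, 11 and 7 of the S phase cells, which were kept. The libraries shared 9 barcodes in all and 0 among S phase cells. One pattern did not follow genotype: the immediate early genes, such as Fos at 353 and 1040.0 CPM in Ctrl and 495 and 238 CPM in TKO, (CPM, UMIs per 1000000 UMIs of the class), were high in Ctrl 2 and TKO 1. Between genotypes 0 of 18 such genes tested passed in edgeR (3 at an unadjusted p under 0.05, and 1 in DESeq2).

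The 5 genes that chose the cells were detected broadly, as the rule requires. The sum behind the choice had a median of 4.61 per 10000 UMIs over all members, from 2.001 to 18.2, and the median member held 11, 10, 15 and 12 UMIs of the 5 genes in the 4 libraries. Rrm2, a subunit of ribonucleotide reductase, was present in 97.3, 95.9, 98.6 and 98.6% of members and Clspn, the checkpoint adaptor claspin, in 90.05, 90.8, 90.7 and 90.3%. Cdc6, the helicase loader, was in 54.9, 41.8, 53.6 and 44.1%, Ccne1 in 64.1, 60.9, 74.0 and 71.9%, and Ccne2 in 60.2, 51.9, 64.5 and 63.6%. At the edge of the rule, 169 members had a sum from 2.001 to 2.497 and 170 basal cells just outside had 1.502 to 1.998. A further 318 basal cells reached 2 but were left out because the second set was at 5 or more.

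Summed over each class, the 5 genes stood at 494, 500.2, 521 and 481 CPM in S phase cells of Ctrl 1, Ctrl 2, TKO 1 and TKO 2, and at 46.1, 35.6, 72.9 and 55.6 CPM in other basal cells. Rrm2 in S phase cells was 205 and 216 CPM in Ctrl and 256 and 224 CPM in TKO, and Clspn was 151 and 159 CPM in Ctrl and 129.9 and 129 CPM in TKO. The second set, capped by the rule, summed to 112, 127.5, 160.2 and 143 CPM in S phase cells and was higher in both TKO libraries than in both Ctrl libraries. Among the keratins of the gate, Krt15, which marks cells of the basal layer, was 3965 and 4965 CPM in Ctrl and 1986 and 1989 CPM in TKO (log2 -1.17). Sp5, a Wnt-responsive factor capped by the rule, was 0.195 and 0.338 CPM in Ctrl and 3.62 and 3.83 CPM in TKO. As the choice of cells bears on these genes, their values are given as a description, with no test.

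Basal genes that the rule did not use were present in all libraries. Trp63, the master factor of stratified epithelia, Itga6 and Itgb4, the hemidesmosome integrins, and 6 other basal markers summed to 3126 and 3274 CPM in Ctrl and 2402 and 2783 CPM in TKO. Of other cell types, fibroblast markers summed to 1379 and 1466 CPM in Ctrl and 1099.9 and 840.5 CPM in TKO, nearly all of it Dcn, whereas the collagen gene Col1a1 was 7.98 and 16.01 CPM in Ctrl and 31.1 and 1.91 CPM in TKO. Immune markers summed to 14.1 and 4.96 CPM in Ctrl and 50.9 and 18.9 CPM in TKO, with 4, 0, 10 and 5 UMIs of Ptprc, the gene of the leukocyte antigen CD45. Erythroid genes stood at 27.5 and 22.4 CPM in Ctrl and 13.7 and 339 CPM in TKO, high in TKO 2 alone. The immune list was highest in TKO 1. Melanocyte markers summed to 15.1 and 9.58 CPM in Ctrl and 25.7 and 17.2 CPM in TKO, with Tyrp1 at 0 in every library. Endothelial markers summed to 20.05 and 21.3 CPM in Ctrl and 41.2 and 27.6 CPM in TKO. The Merkel cell list summed to 34.6 and 56.9 CPM in Ctrl and 25.8 and 13.6 CPM in TKO. Hair follicle genes outside the gate, several of which basal cells also express, summed to 1448 and 1569 CPM in Ctrl and 1126 and 1156 CPM in TKO. Genes of 5 of these lists passed the genotype test: Dcn (log2 -0.57, adjusted p = 0.023), the macrophage lysozyme Lyz2 (log2 3.61, adjusted p = 0.0251), the melanocyte enzyme Dct (log2 1.82, adjusted p = 0.0383), Sox2 (log2 -4.52, adjusted p = 0.026), and in the hair follicle list Edar, Sox9 and Lgr6 lower and Trps1 higher in TKO. The calls of Dcn, Lyz2, Edar and Lgr6 were lost without Ctrl 1 or Ctrl 2, those of Dct and Trps1 without Ctrl 2, and that of Sox2 without TKO 2 and with DESeq2. The Dct call was also lost without called doublets and with equal cells per library, where log2 was as low as 0.71, the Trps1 call with thinned cells, and the Lgr6 call with RLE scaling and at an S phase sum of at least 4. The log2 value was 2.33 without TKO 1 and 4.27 without TKO 2 for Lyz2, 2.69 without Ctrl 1 for Dct, and -6.64 without TKO 1 and -3.80 without TKO 2 for Sox2. Lyz2, Dct and Sox2 come from lists with low sums and may have passed the filter on low counts only through the group where they are higher. A value existed under 13 alternatives for Lyz2, 14 for Dct and 10 for Sox2, against 15 for Dcn. Their calls are therefore given as a description. The part of these other cell types in the results was not tested.

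Set beside other basal cells, S phase cells carried more of the replication machinery in every library. All tested members of 4 lists were above other basal cells in each of the 4 libraries: 20 origin licensing genes, 27 fork and polymerase genes, 12 nucleotide supply genes and 14 chromatin assembly genes. Of all genes tested 17.6% were. The median log2 ratio in Ctrl was 1.25 for licensing, 1.39 for fork, 0.96 for nucleotide supply and 1.22 for chromatin assembly genes, and in TKO it was 1.01, 1.19, 0.85 and 1.06. The cells were chosen by genes of this programme from the same libraries, so the ratios are a description with no test.

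**Figure D1:**
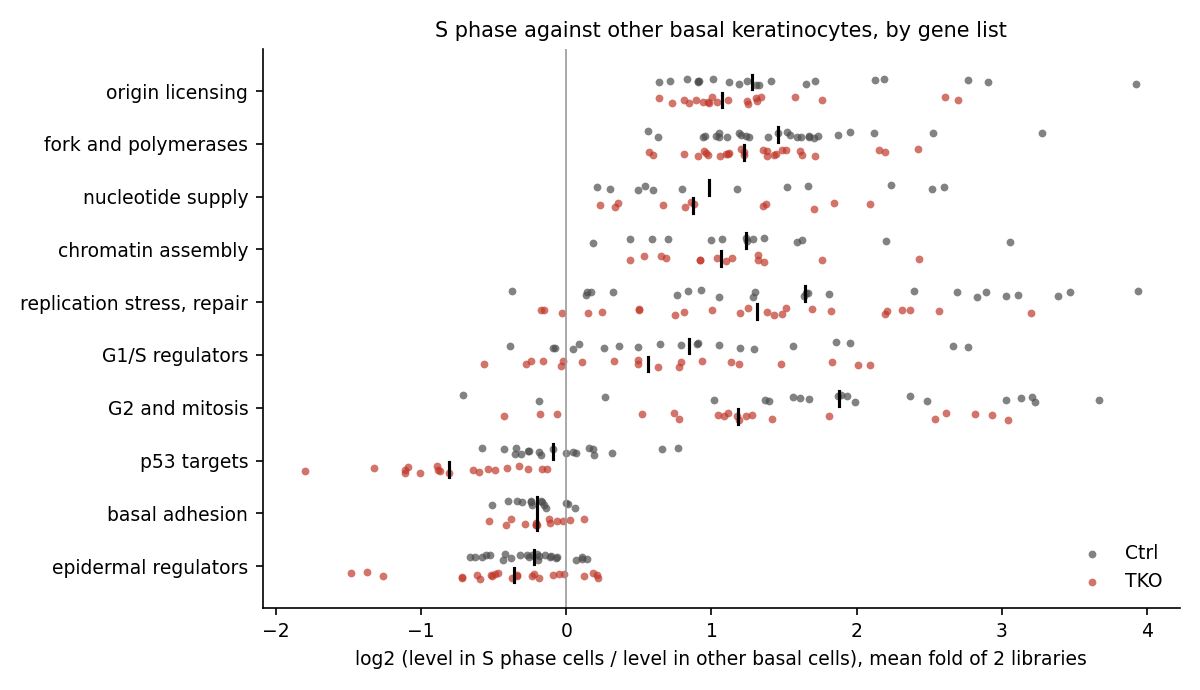
Each point is 1 gene, placed by the log2 ratio of its level in S phase cells to that in other basal cells (horizontal axis), with Ctrl in grey and TKO in red and a black bar at the median of each list. Origin licensing, fork, nucleotide supply and chromatin assembly genes lie to the right of 0. Over all 20 p53 targets measured, with a constant added to each level, the median was -0.050 in Ctrl and -0.72 in TKO. The bars are drawn over the tested members without that constant and can differ.

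The genes with the largest ratio in Ctrl that the rule did not use were led by Esco2, the acetyltransferase that establishes sister chromatid cohesion. Its level in S phase cells was 25.2, 23.4, 7.45 and 12.7 times that in other basal cells of Ctrl 1, Ctrl 2, TKO 1 and TKO 2. Neil3, a glycosylase that repairs oxidised bases and crosslinks, stood at 21.5, 18.4, 8.31 and 20.2 times, and Pclaf, which binds PCNA, at 16.1, 19.7, 8.43 and 12.03 times. In the same order Mcm10, which helps activate the helicase, was at 12.9, 17.4, 4.45 and 8.55 times and Brca1, of homologous recombination, at 10.2, 11.98, 5.52 and 6.32 times. As the genes were ranked on the Ctrl ratios, the ratios of the genotypes are not compared. Fam111a, Rad51ap1, Mybl2, Pbk and Aurkb completed the 10. Mitotic genes also stood above other basal cells: 17 of 20 genes of G2 and mitosis outside the gate did so in all libraries, with a median log2 ratio of 1.80 in Ctrl and 1.09 in TKO, although the rule capped 5 other mitotic genes.

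Single members varied in their mitotic transcripts. With each cell thinned to 10000 UMIs, origin licensing genes gave a mean of 17.2, 17.3, 18.5 and 17.1 UMIs per S phase cell in the 4 libraries, against 7.50, 6.99, 7.93 and 7.77 per other basal cell. For the G2 and mitosis genes outside the gate the median S phase cell held 7, 10, 12 and 12 UMIs. The lowest 10% of cells held at most 2, 2, 4 and 2 and the highest 10% at least 33, 35, 28 and 30. The S phase class thus held cells with few and cells with many mitotic transcripts in every library.

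The first comparison asked whether TKO epidermis held another share of cells that meet the S phase rule, which reads the UMIs of 5 transcripts and does not measure DNA synthesis. Of all basal keratinocytes, 27.1% (exact binomial 95% interval 24.9 to 29.4) and 22.4% (20.5 to 24.4) met the rule in Ctrl 1 and Ctrl 2, and 34.0% (31.2 to 36.9) and 32.9% (30.04 to 35.8) in TKO 1 and TKO 2. Both TKO shares lay above both Ctrl shares. The means were 24.7 ± 3.29% (SD, n = 2) and 33.4 ± 0.792% (n = 2), a difference of 8.68 percentage points (two-sided exact permutation test, p = 0.3333, the smallest that 2 against 2 libraries allow). A design of this size cannot reach 0.05. With every cell thinned to 10000 UMIs before the rule was applied (50, 94, 21 and 28 shallower basal cells left out), which removes the gap in depth, the means were 27.6 ± 3.06% and 34.3 ± 0.977%. G2 and mitotic cells made up 21.7% of basal cells in Ctrl and 32.9% in TKO. The share depends on how many other basal cells were captured, and as a share of all cells past the filters the means were 12.6 and 15.5%. Intervals cover counting error only. The limits on Krt5, Krt14 and Krt15 and on the hair follicle genes, which set the basal cells, were not varied. The median sum of these keratins in S phase cells was 159 and 182 in Ctrl and 131 and 162 in TKO, and its part in the shares was not tested.

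**Figure D2:**
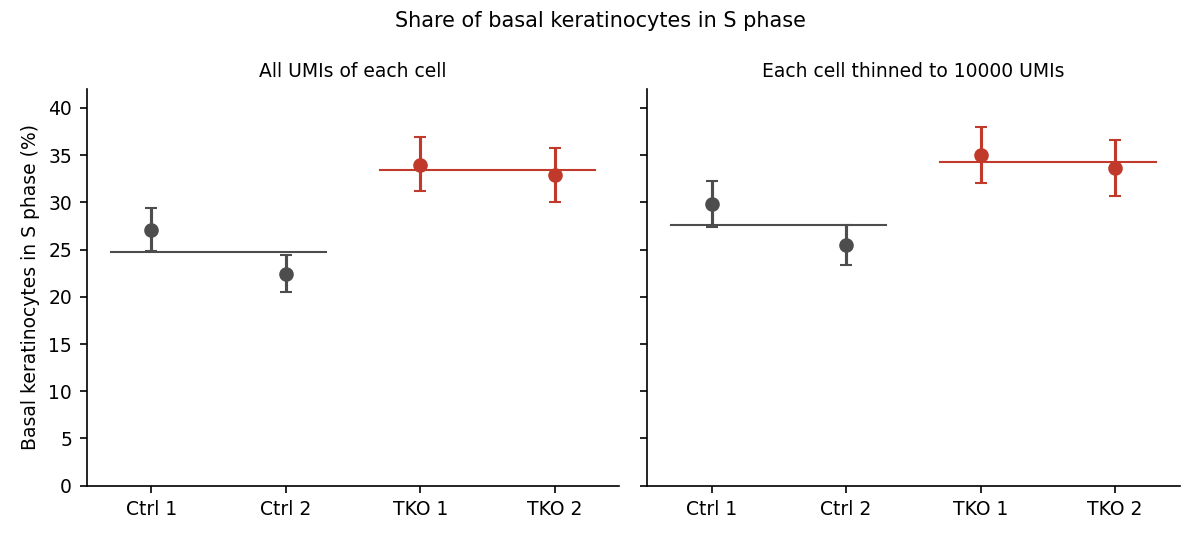
Percentage of basal keratinocytes in S phase (vertical axis) in each library, with exact binomial 95% intervals as bars and the group means as lines, for all UMIs (left) and for cells thinned to 10000 UMIs (right). TKO libraries sit at 34.0 and 32.9% and Ctrl libraries at 27.1 and 22.4% in the left panel.

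The second comparison asked which transcripts differed between TKO and Ctrl in S phase cells. UMIs were summed over the S phase cells of each library and tested with edgeR's quasi-likelihood test. Of 14609 genes tested 1739 passed an adjusted p of 0.05 (11.9%), 1100 higher (7.53%) and 639 lower (4.37%) in TKO. These are the background for the lists that follow. The median absolute log2 change of the genes that passed was 0.77, and 665 of them (38.2%) differed by at least 1 on the log2 scale. Both TKO libraries lay above both Ctrl libraries for 30% of the genes tested and below both for 28.9%. Of the raised genes 152 (13.8%) were under 1 CPM in both Ctrl libraries, while 46 of those that fell (7.20%) had less than 1 CPM in each TKO library. The number of calls rested on single libraries: it was 442 without Ctrl 2, 455 without Ctrl 1, 2282 without TKO 1 and 2837 without TKO 2, and 752 with cells thinned to 5000 UMIs. In such sums fewer cells with a transcript and less RNA per cell cannot be told apart.

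The targeted genes were read first. Setdb1 in S phase cells was 82.7 and 68.7 CPM in Ctrl and 42.7 and 49.6 CPM in TKO, lower in both TKO libraries (log2 -0.72 ± 0.14 (SE), edgeR adjusted p = 0.0255). The call was lost without Ctrl 1 and with thinned cells. Suv39h1 was 37.5 and 31.6 CPM in Ctrl and 30.1 and 24.5 CPM in TKO, which did not pass (log2 -0.34, adjusted p = 0.187), and Suv39h2, deleted in both groups, was 22.3 and 24.2 CPM in Ctrl and 28.2 and 21.7 CPM in TKO (log2 0.10, adjusted p = 0.708). The kit reads 3′ ends and the labels do not say which exons are removed, so counts from the remaining part of a gene do not check its deletion.

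The core of the replication machinery showed few differences between genotypes in S phase cells. Of 20 origin licensing genes 0 passed in edgeR (median log2 -0.037), with 3 at an unadjusted p under 0.05 and 1 called by DESeq2. Among G2 and mitotic cells 5 were higher in TKO, where 10.6% of all genes passed. By the test of the difference itself the genotype effect was lower in S phase than in G2 and mitotic cells for 5 of 20 origin licensing genes (Mcm2, Mcm3, Mcm5, Mcm6 and Cdt1; list median of the difference -0.28) and 6 of 27 fork genes (Pola1, Pole, Rfc1, Rfc2, Lig1 and Tipin; median -0.44), against 0.611% of all genes. These counts were 2 and 2 without Ctrl 1 or without TKO 1, 2 and 4 with thinned cells, 7 and 11 without Ctrl 2, 7 and 12 without called doublets and 7 and 14 with no expression filter. The genes were named after their values were seen. The rule set a floor on S phase genes in S phase cells and none in G2 and mitotic cells. The counts are therefore given as a description. The S phase genes of the gate, used to choose the cells, summed to 124, 122, 162 and 154 CPM in G2 and mitotic cells of the 4 libraries. The median of their own difference was -0.47, and the part of the gate in these differences was not tested. Gmnn, encoding geminin, which blocks relicensing by binding CDT1, had the most UMIs of the list at 217 and 219 CPM in Ctrl and 312 and 264 CPM in TKO (log2 0.40, adjusted p = 0.0523), with the groups apart but the threshold missed. The helicase subunits Mcm3 and Mcm7 were 149 and 156 CPM in Ctrl and 174 and 159 CPM in TKO (log2 0.13, adjusted p = 0.426) and 145 and 139.9 CPM in Ctrl and 164 and 156 CPM in TKO (log2 0.17, adjusted p = 0.285). Orc6, of the origin recognition complex, was 165 and 164 CPM in Ctrl and 164 and 162 CPM in TKO (log2 -0.016, adjusted p = 0.934). Of 27 fork and polymerase genes 1 rose, Rfc3 of the clamp loader, at 118 and 119 CPM in Ctrl and 166 and 161 CPM in TKO (log2 0.46 ± 0.091 (SE), edgeR adjusted p = 0.025). The clamp itself, Pcna, was 285 and 319 CPM in Ctrl and 264 and 318 CPM in TKO (log2 -0.049, adjusted p = 0.84). Pola1, the catalytic subunit of the polymerase that starts each strand, was 389.7 and 344 CPM in Ctrl and 247 and 325 CPM in TKO (log2 -0.36, adjusted p = 0.188), and the ligase gene Lig1, which joins Okazaki fragments, was 180.1 and 172 CPM in Ctrl and 155 and 141 CPM in TKO (log2 -0.25, adjusted p = 0.143). The median of the fork list was -0.10 on the log2 scale.

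Nucleotide supply and chromatin assembly held 3 more raised genes. They were 16.7% of the nucleotide supply genes tested and 7.14% of the chromatin assembly genes, the latter near the 7.53% of all genes. Cad, which starts pyrimidine synthesis, was 21.4 and 17.8 CPM in Ctrl and 32.6 and 31.8 CPM in TKO (log2 0.71 ± 0.14 (SE), edgeR adjusted p = 0.0254). Umps, which completes uridine monophosphate, was 36.7 and 36.8 CPM in Ctrl and 54.6 and 50.2 CPM in TKO (log2 0.51 ± 0.11 (SE), edgeR adjusted p = 0.0274). In both genes the TKO libraries lay above the Ctrl libraries, and these were 2 of 12 list members tested (median log2 0.13). Dut, which keeps uracil out of DNA, was 412 and 433 CPM in Ctrl and 484 and 452 CPM in TKO (log2 0.15, adjusted p = 0.341), and Tyms, thymidylate synthase, was 169 and 166 CPM in Ctrl and 155 and 173 CPM in TKO (log2 -0.032, adjusted p = 0.876). Among 14 chromatin assembly genes only H2az1, for the histone variant H2A.Z, rose, at 1814 and 1892 CPM in Ctrl and 2523 and 2384 CPM in TKO (log2 0.40 ± 0.081 (SE), edgeR adjusted p = 0.0254), while the list median was 0.13. Nasp, a chaperone of histone H3 and H4, was 412 and 391 CPM in Ctrl and 414 and 407 CPM in TKO (log2 0.033, adjusted p = 0.855), and Uhrf1, which reads hemimethylated DNA behind the fork, was 259 and 241 CPM in Ctrl and 229 and 219.6 CPM in TKO (log2 -0.16, adjusted p = 0.332). The calls for Rfc3, Cad and Umps were lost with thinned cells and without Ctrl 1 or Ctrl 2, that for Cad also at an S phase sum of at least 4, that for Umps with DESeq2, and that for H2az1 without Ctrl 1 or Ctrl 2.

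Regulators of entry into S phase were lower where they differed. Of 20 G1/S regulators 3 fell (15%, against 4.37% of all genes) and 0 rose. Ccnd1, encoding cyclin D1, was 133 and 126 CPM in Ctrl and 70.6 and 87.98 CPM in TKO (log2 -0.71 ± 0.14 (SE), edgeR adjusted p = 0.023). Ccnd2, encoding cyclin D2, was 1223 and 1119 CPM in Ctrl and 862 and 892 CPM in TKO (log2 -0.42 ± 0.10 (SE), edgeR adjusted p = 0.0401). E2f1 was 54.7 and 58.4 CPM in Ctrl and 43.5 and 40.5 CPM in TKO (log2 -0.43 ± 0.10 (SE), edgeR adjusted p = 0.0434). The TKO libraries were below the Ctrl libraries in all 3 genes. The 3 calls were lost without Ctrl 1 or Ctrl 2, that of Ccnd2 also without TKO 1 and that of E2f1 without TKO 2. With thinned cells Ccnd1 and E2f1 lost the call, and E2f1 also with DESeq2 and at an S phase sum of at least 4. The partner kinase genes Cdk4 and Cdk6 were 332 and 358 CPM in Ctrl and 388 and 361 CPM in TKO (log2 0.12, adjusted p = 0.449) and 184 and 165 CPM in Ctrl and 179 and 215 CPM in TKO (log2 0.18, adjusted p = 0.428). In other basal cells Ccnd1 was 87.7 and 96.8 CPM in Ctrl and 95.9 and 143 CPM in TKO and in G2 and mitotic cells 49.3 and 45.5 CPM in Ctrl and 47.6 and 70.9 CPM in TKO. The log2 difference of TKO from Ctrl in S phase cells was below that in other basal cells (difference -1.03 ± 0.10 (SE), edgeR adjusted p = 0.00578), and below that in G2 and mitotic cells (difference -1.02 ± 0.10 (SE), edgeR adjusted p = 0.000761).

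Of 6 CDK inhibitor genes tested, from 8 measured, 2 rose and 0 fell, while the median of the list was -0.40 on the log2 scale. Cdkn1a, encoding p21, was 26.4 and 47.8 CPM in Ctrl and 108 and 109 CPM in TKO (log2 1.56 ± 0.24 (SE), edgeR adjusted p = 0.0114). The groups did not overlap in these sums. They did in the share of S phase cells with a Cdkn1a UMI, which with cells thinned to 5000 UMIs was 9.95 and 16.7% in Ctrl and 25.4 and 16.3% in TKO, and without thinning 31.3 and 38.9% in Ctrl and 56.01 and 39.3% in TKO, where the groups were apart. No order of the groups is read from these shares. Cdkn3, a phosphatase of CDKs that peaks in G2 and mitosis, was 3.21 and 4.06 CPM in Ctrl and 9.82 and 9.47 CPM in TKO (log2 1.41 ± 0.24 (SE), edgeR adjusted p = 0.0151). The call of Cdkn3 was lost without Ctrl 1 or Ctrl 2 and that of Cdkn1a under no alternative run, and log2 of Cdkn3 was 2.22 with thinned cells. Cdkn2c, encoding p18, missed the threshold at 7.49 and 9.02 CPM in Ctrl and 3.06 and 4.49 CPM in TKO (log2 -1.13, adjusted p = 0.0501), and Cdkn1c, encoding p57, was 138 and 133 CPM in Ctrl and 118 and 67.2 CPM in TKO (log2 -0.55, adjusted p = 0.164). Cdkn2a gave 1 UMI in all S phase cells together. In other basal cells Cdkn1a was 32.8 and 51.6 CPM in Ctrl and 222 and 186 CPM in TKO, again with the groups apart (log2 2.21 ± 0.23 (SE), edgeR adjusted p = 0.00459), and the effect in S phase minus that in other basal cells was -0.67 ± 0.12 (SE), edgeR adjusted p = 0.0362. That difference was lost without Ctrl 2 and with as many other basal cells as S phase cells.

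Of 19 tested targets (20 measured) of p53, the damage-responsive transcription factor, 10 rose in S phase cells and 0 fell, with a median log2 of 0.51. The sum over the list overlapped between genotypes, at 634, 1002, 1177 and 936 CPM in Ctrl 1, Ctrl 2, TKO 1 and TKO 2, and so did the UMIs of the list in the median S phase cell thinned to 10000 UMIs, at 5, 8, 9 and 7. In other basal cells 13 rose, with a median of 1.39, where 7.04% of all genes passed, and in G2 and mitotic cells 10 rose, with a median of 0.65. Of all genes 4.81% rose and 2.23% fell in other basal cells, and 7.02% rose and 3.58% fell in G2 and mitotic cells. The list was chosen with results of these libraries known. Trp53inp1, a stress-induced partner of p53, was 42.6 and 47.5 CPM in Ctrl and 79.9 and 71.5 CPM in TKO in S phase cells (log2 0.75 ± 0.11 (SE), edgeR adjusted p = 0.00979). In other basal cells it was 67.4 and 67.3 CPM in Ctrl and 272 and 256 CPM in TKO (log2 1.91 ± 0.10 (SE), edgeR adjusted p = 0.000739). The groups did not overlap in either class. Ccng1, encoding cyclin G1, was 21.7 and 21.6 CPM in Ctrl and 74.6 and 53.4 CPM in TKO in S phase cells (log2 1.56 ± 0.17 (SE), edgeR adjusted p = 0.00365). Bax, a pore-forming inducer of apoptosis, was 87.98 and 97.98 CPM in Ctrl and 205 and 169 CPM in TKO (log2 1.01 ± 0.12 (SE), edgeR adjusted p = 0.00502). Zmat3, an RNA-binding p53 target, was 21.1 and 21.1 CPM in Ctrl and 53.8 and 42.9 CPM in TKO (log2 1.20 ± 0.14 (SE), edgeR adjusted p = 0.00496). In each of these genes both TKO libraries exceeded both Ctrl libraries. The call of Trp53inp1 in S phase cells was lost with thinned cells, without Ctrl 1 and at an S phase sum of at least 4, with log2 as low as 0.29, and those of Ccng1, Bax and Zmat3 under no alternative run.

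The other 6 raised members were Eda2r (log2 2.54, adjusted p = 0.0157), Plk2 (log2 1.28, adjusted p = 0.0133), Aen (log2 0.98, adjusted p = 0.0226), Phlda3 (log2 0.63, adjusted p = 0.011), Ei24 (log2 0.51, adjusted p = 0.032) and Polk (log2 0.47, adjusted p = 0.0465), all from edgeR. Without Ctrl 2 the calls of Aen, Phlda3, Ei24 and Polk were lost, without Ctrl 1 those of Phlda3, Ei24 and Polk, and without TKO 1 that of Polk. The log2 value of Eda2r was 3.47 without Ctrl 1 and 1.22 with thinned cells. Thinned cells lost Eda2r, Aen and Polk, and a sum of at least 4 lost Ei24 and Polk. The Polk call was lost under 10 of 15 alternatives, DESeq2 included, while that of Plk2 was kept under every alternative run. Members that did not pass included Mdm2, the ubiquitin ligase that degrades p53, at 40.6 and 60.4 CPM in Ctrl and 69.1 and 61.5 CPM in TKO (log2 0.37, adjusted p = 0.22). Btg2, also an immediate early gene, was 132 and 425 CPM in Ctrl and 201 and 133 CPM in TKO, high in Ctrl 2 like Fos (log2 -0.73, adjusted p = 0.36).

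The difference between the classes was tested itself. Across 15725 genes the genotype effect in S phase cells differed from that in other basal cells for 352 (2.24%), higher for 0.96% and lower for 1.28%, and 8 of 19 p53 targets were among them, all with the smaller effect in S phase cells. The smallest p among them was that of Trp53inp1 at -1.18 ± 0.081 (SE), edgeR adjusted p = 0.00155. Ccng1 differed by -0.88, Zmat3 by -0.90, Bax by -0.41, Polk by -1.01, Fas by -1.13, Ei24 by -0.55 and Sesn2 by -0.78 on the log2 scale. Trp53inp1 and Ccng1 kept the call under every alternative run, whereas Zmat3, Bax, Polk, Fas, Ei24 and Sesn2 lost it without Ctrl 2, Bax and Fas also without Ctrl 1, Fas without TKO 2 and Sesn2 without each other library. Fas, Ei24 and Sesn2 also lost it with thinned cells, and Sesn2 with as many other basal cells as S phase cells. The 352 calls became 29 without Ctrl 2 and 676 without TKO 1. Fas and Sesn2 were not called within S phase cells. Against G2 and mitotic cells the same test called 0 of 19 p53 targets, with a list median of the difference of -0.11. The S phase genes of the gate were also higher in TKO than in Ctrl other basal cells (46.1, 35.6, 72.9 and 55.6 CPM), and the part of this in the differences was not tested. Markers of other cell types varied by library in other basal cells of Ctrl 1, Ctrl 2, TKO 1 and TKO 2. Melanocyte markers summed to 6.27, 7.69, 16.8 and 176 CPM, erythroid genes to 16.3, 890, 26.6 and 656 CPM and immune markers to 10.7, 45.0, 49.3 and 76.2 CPM. Their part in the differences was not tested.

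**Figure D3:**
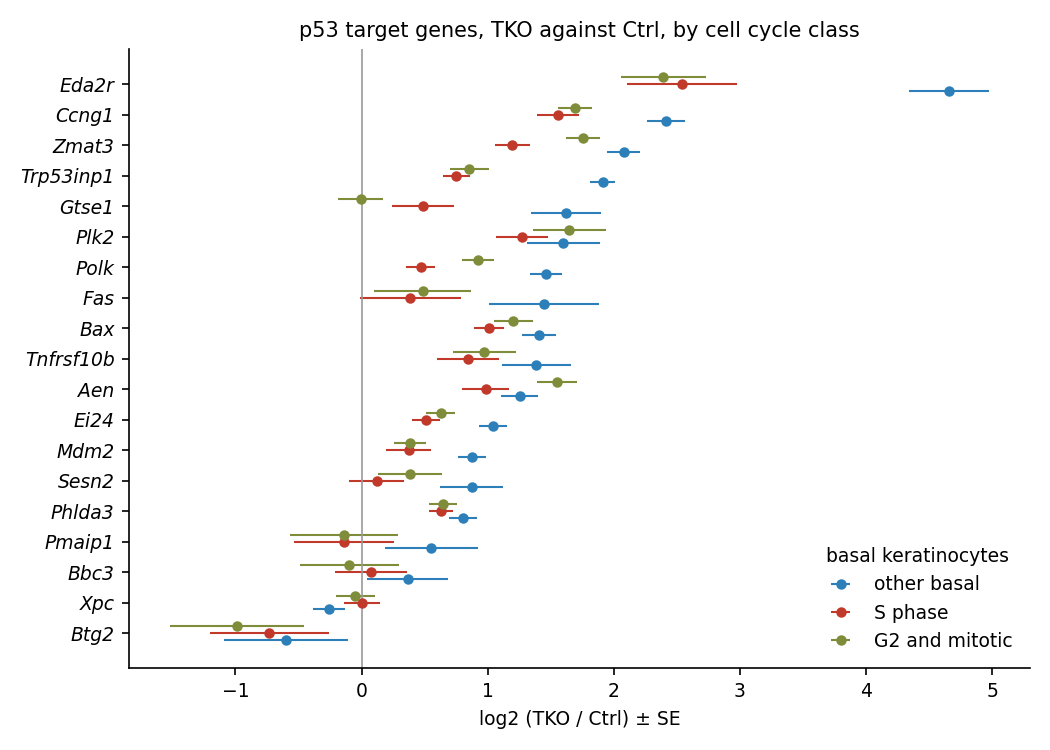
Log2 ratio of TKO to Ctrl with its standard error (horizontal axis) for each p53 target (rows) in other basal, S phase and G2 and mitotic cells. Trp53inp1 lies at 1.91 in other basal cells and 0.75 in S phase cells.

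Late cell cycle genes differed in both directions. Ccnb2, encoding the mitotic cyclin B2, was 18.3 and 20.5 CPM in Ctrl and 48.8 and 48.7 CPM in TKO in S phase cells (log2 1.33 ± 0.12 (SE), edgeR adjusted p = 0.00259). Cenpa, the centromeric histone, was 26.96 and 28.8 CPM in Ctrl and 69.7 and 65.9 CPM in TKO (log2 1.28 ± 0.11 (SE), edgeR adjusted p = 0.00236). Cdc20, which activates the anaphase-promoting complex, was 28.9 and 29.3 CPM in Ctrl and 51.8 and 46.1 CPM in TKO (log2 0.75 ± 0.11 (SE), edgeR adjusted p = 0.0109). These 3 of 20 genes of the list rose with no overlap of the groups. Nusap1, a spindle protein, was the 1 that fell, at 62.97 and 85.6 CPM in Ctrl and 44.4 and 48.9 CPM in TKO (log2 -0.67 ± 0.16 (SE), edgeR adjusted p = 0.0402). Top2a, the topoisomerase of chromosome condensation, was 291 and 328 CPM in Ctrl and 278 and 278 CPM in TKO and did not pass (log2 -0.15, adjusted p = 0.355). The calls of Ccnb2 and Cenpa were kept under every alternative run, that of Cdc20 was lost without Ctrl 1 or Ctrl 2, and that of Nusap1 without Ctrl 2. Both were also lost with thinned cells, and Cdc20 at an S phase sum of at least 4. In other basal cells 6 of the 20 rose and 0 fell, with a median log2 of 0.68 against 0.11 in S phase cells. By the test of the difference the effect was lower in S phase than in other basal cells for 3 of the 20, Birc5, Bub1 and Cdca8, against 1.28% of all genes (list median of the difference -0.54). That count was 0 without Ctrl 2, 10 without TKO 2, 6 without called doublets and 11 with no expression filter.

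In G2 and mitotic cells Ccnb2 was 191 and 183 CPM in Ctrl and 159 and 166 CPM in TKO (log2 -0.21, adjusted p = 0.247) and Cenpa was 409.9 and 399 CPM in Ctrl and 343 and 343 CPM in TKO (log2 -0.24, adjusted p = 0.168). The effect in S phase minus that in G2 and mitotic cells was 1.53 ± 0.10 (SE), edgeR adjusted p = 4.33e-05 for Ccnb2 and 1.52 ± 0.082 (SE), edgeR adjusted p = 1.43e-05 for Cenpa. Across 15376 genes this difference passed for 158 (1.03%), with the higher effect in S phase cells for 0.416% and the lower for 0.611% of all genes, and of the 20 G2 and mitosis genes outside the gate 6 were among them, all with the higher effect in S phase cells: Ccnb2, Cenpa, Cdc20, Birc5, Hmmr and Bub1b (list median of the difference 0.31). That count was 3 without Ctrl 1, TKO 1 or TKO 2, 4 with thinned cells and 8 without Ctrl 2. Cdkn3, of the list of CDK inhibitors, was also among them, lost without Ctrl 1. The number of calls was 43 without TKO 1 and 66 without Ctrl 1. The capped gate genes of this phase also summed higher in TKO S phase cells (112, 127.5, 160.2 and 143 CPM), and their part in these values was not tested.

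**Figure D4:**
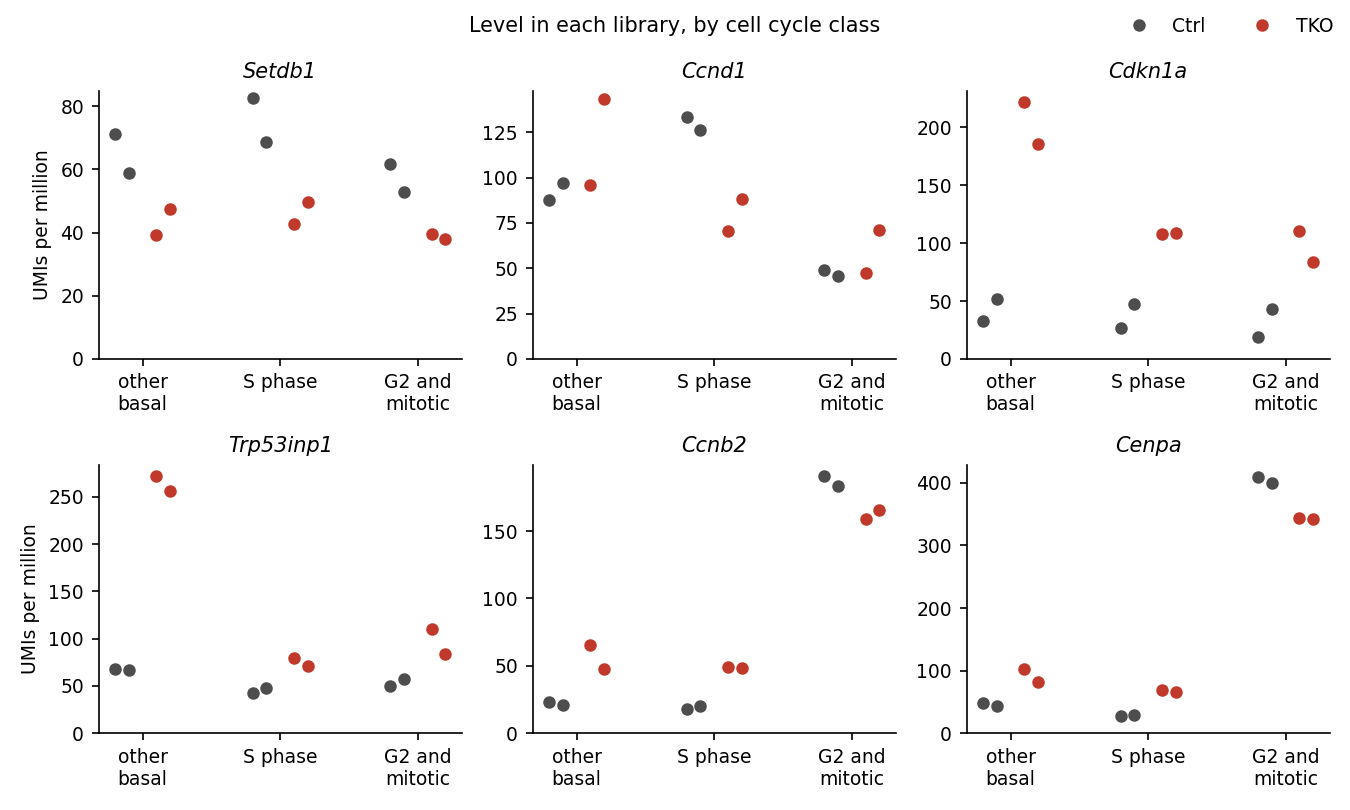
UMIs per 1000000 (CPM, vertical axis) of 6 genes in each library, for other basal, S phase and G2 and mitotic cells, with Ctrl in grey and TKO in red. In S phase cells Cdkn1a and Trp53inp1 are higher and Ccnd1 and Setdb1 lower in both TKO libraries, and Ccnb2 stands near 48.8 CPM against 18.3 and 20.5 CPM in Ctrl.

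Few genes that protect stalled forks passed. Of 24 replication stress and repair genes 3 fell (12.5%, against 4.37% of all genes) and 0 rose. The 3 were all of the homologous recombination pathway. Brca1 was 120.0 and 112 CPM in Ctrl and 80.1 and 84.2 CPM in TKO (log2 -0.50 ± 0.10 (SE), edgeR adjusted p = 0.0274). Its partner Bard1 was 54.2 and 55.7 CPM in Ctrl and 40.6 and 40.5 CPM in TKO (log2 -0.44, adjusted p = 0.0387, edgeR), and Brca2 was 91.5 and 93.9 CPM in Ctrl and 68.7 and 70.7 CPM in TKO (log2 -0.41, adjusted p = 0.0392, edgeR). The TKO libraries were below the Ctrl libraries in each. The effect on Brca1 in S phase minus that in other basal cells was -0.86 ± 0.13 (SE), edgeR adjusted p = 0.0257, lost with thinned cells and without Ctrl 2. H2ax, the histone variant phosphorylated at breaks, was 158 and 175 CPM in Ctrl and 249 and 201 CPM in TKO (log2 0.43, adjusted p = 0.062), and Topbp1, an activator of the kinase ATR, was 219 and 204 CPM in Ctrl and 190.3 and 209.7 CPM in TKO (log2 -0.078, adjusted p = 0.686). The 3 calls within S phase cells were lost with thinned cells and without Ctrl 1 or Ctrl 2, and those of Brca2 and Bard1 also without TKO 1 and with DESeq2. Brca2 further lost the call at an S phase sum of at least 4, and Bard1 with equal cells per library.

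Of 24 heterochromatin genes other than the targeted ones 2 were raised (8.33%, near the 7.53% of all genes) and 0 lowered (median log2 0.077). Atf7ip, the cofactor that stabilises SETDB1, was 93.8 and 67.8 CPM in Ctrl and 159.5 and 209 CPM in TKO (log2 1.19 ± 0.20 (SE), edgeR adjusted p = 0.0149). Dnmt3b, a de novo DNA methyltransferase, was 11.7 and 11.6 CPM in Ctrl and 24.7 and 26.2 CPM in TKO (log2 1.13 ± 0.15 (SE), edgeR adjusted p = 0.00769). The groups were apart in both genes, though the Atf7ip call was lost without Ctrl 2 and the Dnmt3b call with thinned cells. Atrx, a chromatin remodeller of heterochromatin, was 476 and 438 CPM in Ctrl and 342 and 385 CPM in TKO (log2 -0.33, adjusted p = 0.107), and Cbx5, encoding HP1α, was 289 and 267 CPM in Ctrl and 217 and 249 CPM in TKO (log2 -0.26, adjusted p = 0.202).

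Of 24 epidermal regulators 5 fell and 1 rose. Trp63 was 699 and 668 CPM in Ctrl and 366 and 489 CPM in TKO (log2 -0.67 ± 0.16 (SE), edgeR adjusted p = 0.0379). Dlk2, a Notch pathway ligand, was 59.1 and 57.2 CPM in Ctrl and 33.2 and 35.2 CPM in TKO (log2 -0.76 ± 0.11 (SE), edgeR adjusted p = 0.00964). Id1, a target of BMP signalling, was 69.5 and 78.2 CPM in Ctrl and 224 and 180.3 CPM in TKO (log2 1.45 ± 0.13 (SE), edgeR adjusted p = 0.00249). Id2 (log2 -0.71, adjusted p = 0.0401), Sox9 (log2 -0.68, adjusted p = 0.0314) and Klf4 (log2 -0.55, adjusted p = 0.0304) were the others that fell. The groups did not overlap in any of these genes. The calls of Trp63, Klf4, Id2 and Sox9 were lost without Ctrl 1 or Ctrl 2 and that of Dlk2 without Ctrl 1. Id2 and Sox9 also lost it with thinned cells, and Sox9 with DESeq2 and at an S phase sum of at least 4, while Id1 kept its call under every alternative run. Among 14 adhesion and basement membrane genes Col7a1, of the anchoring fibrils, fell, at 124 and 115 CPM in Ctrl and 44.8 and 59.3 CPM in TKO (log2 -1.20 ± 0.16 (SE), edgeR adjusted p = 0.0075), whereas Itga6, whose protein was used for the sort, was 442 and 467 CPM in Ctrl and 379.5 and 514 CPM in TKO (log2 -0.022, adjusted p = 0.947). Of 10 early differentiation genes tested, from 19 measured, 1 passed: Lor, the cornified envelope protein loricrin, at 5.06 and 6.43 CPM in Ctrl and 11.5 and 16.4 CPM in TKO (log2 1.29 ± 0.26 (SE), edgeR adjusted p = 0.0264), lost without Ctrl 1 or Ctrl 2. No other member passed, and the median log2 of the 10 was -0.49, 4 lay below and 1 above with no overlap of the groups, and the 19 genes summed to 1049, 1098, 515 and 913 CPM in Ctrl 1, Ctrl 2, TKO 1 and TKO 2. Epcam, whose protein was also used for the sort, was 113 and 113 CPM in Ctrl and 220.3 and 169 CPM in TKO (log2 0.79 ± 0.13 (SE), edgeR adjusted p = 0.014), lost with thinned cells and without Ctrl 1 or Ctrl 2.

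**Figure D5:**
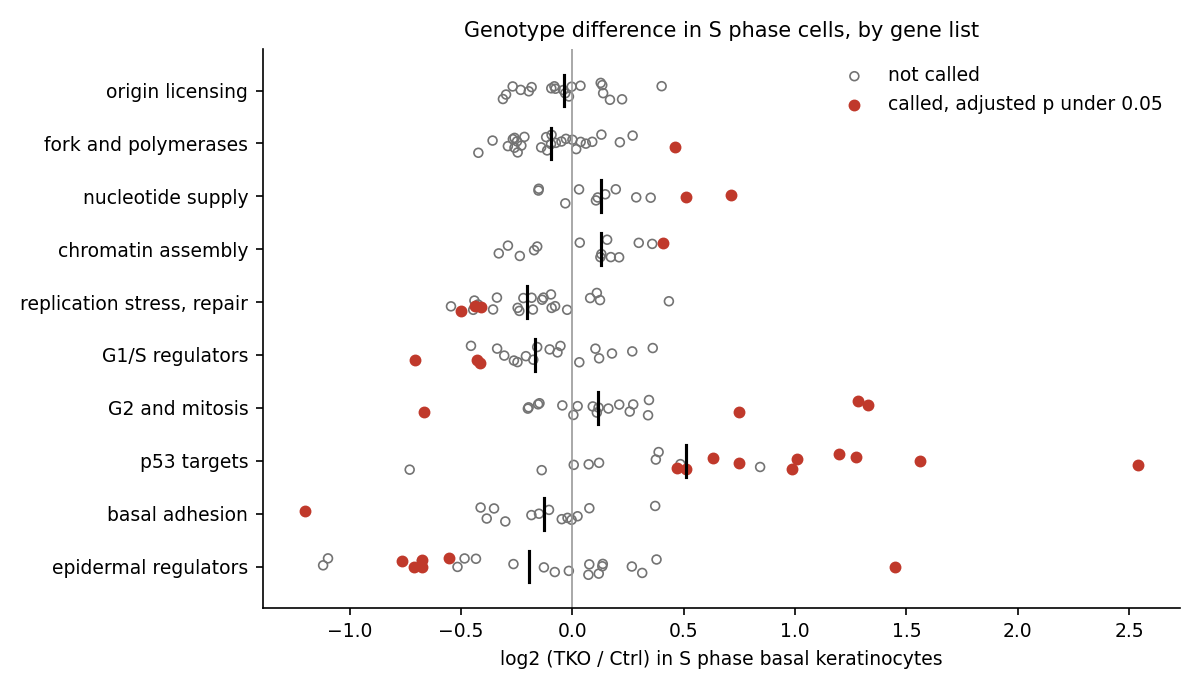
Log2 ratio of TKO to Ctrl in S phase basal keratinocytes (horizontal axis) for every tested member of each list (rows), with red points for an edgeR adjusted p under 0.05, open points otherwise and a black bar at the list median. The p53 targets have the median farthest to the right among the lists drawn, at 0.51, and no origin licensing gene is red.

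A panel of 10 genes close to silent in Ctrl keratinocytes and active across TKO cell classes, chosen from these libraries so that its direction is not independent evidence, was read in single S phase cells. With cells thinned to 5000 UMIs, 2.43 and 1.94% of S phase cells in the Ctrl libraries had a UMI of any panel gene, against 65.03% (exact binomial 95% interval 59.9 to 69.9) and 64.8% (59.5 to 69.8) in TKO 1 and TKO 2. Without thinning the shares were 8.01 and 6.28% in Ctrl and 81.1 and 85.7% in TKO. The thinned means were 2.18 ± 0.343% and 64.9 ± 0.192% (SD, n = 2). At 2 or more panel genes the shares were 0 and 0% of Ctrl cells, where 0 of 412 cells, taken as 3 counts of the total, allows a share of cells with such UMIs at this depth of up to 0.728% (exact binomial upper bound 0.891%) and sets no limit on cells expressing the genes, and 26.2 and 24.6% of TKO cells. Other basal TKO cells had 43.5 and 41.8%, and G2 and mitotic TKO cells had 34.3 and 35.5%. Of single genes Gm42653, a predicted transcript, had a UMI in the largest share of TKO S phase cells, at 57.4 and 50.1%. Nothing was corrected for free RNA, and its part in these shares was not tested. Whether TKO S phase cells with no panel UMI kept functional alleles was not tested.

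The largest changes among genes at 20 CPM or more were genes close to absent from 1 group. Gm11884, a long noncoding RNA (chr4:23260747-23392503, plus strand, GRCm39), had 0 and 0 UMIs in Ctrl and 442 and 375 UMIs in TKO, at least 228-fold higher against a floor of 3 counts over the group. Col28a1, a collagen of nerve sheaths, had 0 and 0 UMIs in Ctrl and 210 and 353 UMIs in TKO (at least 157-fold higher), and Gm1110 had 0 and 0 UMIs in Ctrl and 263 and 259 UMIs in TKO (at least 146-fold higher). Gm42653, also of the panel, had 7 and 9 UMIs in Ctrl and 5210 and 2870 UMIs in TKO (log2 8.67 ± 0.31 (SE)). Genes so close to absent from Ctrl passed the filter on low counts through the TKO libraries, so their values are a description. For Tnxa, a copy of the tenascin X gene that may share reads with Tnxb, the counts were 1 and 0 UMIs in Ctrl and 244 and 255 UMIs in TKO, a ratio of 417 (74.6 to 16522) with its 95% counting interval. For 1700030N03Rik they were 2 and 1 UMIs in Ctrl and 332 and 277 UMIs in TKO, a ratio of 169.8 (57.8 to 826). Gm41804, Gm13274, Gm36551 and Sprr2a3, a small proline-rich gene of a near-identical family, completed the 10. Overlaps with another annotated gene were present for 14 of the 20 genes named at both ends, on the same strand for 8, where reads may be shared.

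By the same rule 10 lowered genes were named. Adamts9, a secreted protease (chr6:92749680-92920520, minus strand, GRCm39), was 41.4 and 48.9 CPM in Ctrl and 0.724 and 1.34 CPM in TKO (log2 -5.47 ± 0.26 (SE)). It passed the filter on low counts through the Ctrl libraries, so its value is a description. Sox5, a SoxD transcription factor, was 195 and 203 CPM in Ctrl and 15.5 and 31.7 CPM in TKO (log2 -3.08 ± 0.30 (SE), edgeR adjusted p = 0.00341). The groups were far apart in both. Krt16, a keratin of activated epidermis, was 28.7 and 24.2 CPM in Ctrl and 3.30 and 7.75 CPM in TKO (log2 -2.28 ± 0.36 (SE), edgeR adjusted p = 0.0124). Matn2, a matrix adaptor, was 25.7 and 24.1 CPM in Ctrl and 3.70 and 4.97 CPM in TKO (log2 -2.53 ± 0.21 (SE), edgeR adjusted p = 0.00236). Cdh4, R-cadherin, was 54.7 and 39.8 CPM in Ctrl and 6.92 and 6.69 CPM in TKO (log2 -2.80 ± 0.20 (SE), edgeR adjusted p = 0.00163). The remaining 5 were 9530026P05Rik, which overlaps Adamts9, Grik4, Tmtc1, Rps13-ps1, a pseudogene that may share reads with its parent, and Cnksr2, at log2 -3.47, -2.40, -2.34, -2.25 and -2.25. All 20 genes named kept their calls under every alternative run. Without TKO 2 log2 was -3.70 for Sox5 and -3.02 for Krt16, without TKO 1 it was -4.09 for 9530026P05Rik, and with thinned cells it was -6.98 for Adamts9 and 7.78 for Gm42653. Sox5 fell by more in S phase cells than in other basal cells (-0.80, edgeR adjusted p = 0.0282), a difference lost without Ctrl 2 or TKO 2.

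Beyond the lists, the genes with the smallest p for a different effect in S phase than in other basal cells were Eif5a, Cxcl14, Penk, Rps2 and Hmgb1 on 1 side. Eif5a, a translation factor, was 728 and 753 CPM in Ctrl and 1069 and 1003 CPM in TKO in S phase cells and 689.8 and 711 CPM in Ctrl and 758 and 736 CPM in TKO in other basal cells (difference of effects 0.44 ± 0.042 (SE), edgeR adjusted p = 0.00565). All 5 had the higher effect in S phase cells. Cxcl14 is an epithelial chemokine and Penk encodes an enkephalin precursor, which was 26.5 and 27.2 CPM in Ctrl and 35.2 and 21.3 CPM in TKO in S phase cells (1.17 ± 0.13 (SE), edgeR adjusted p = 0.00859). On the other side, next to Trp53inp1, stood Exoc4, Gm20275, Malat1 and Serpine2. Serpine2, an inhibitor of serine proteases, was 16.8 and 18.04 CPM in Ctrl and 49.7 and 32.6 CPM in TKO in S phase cells and 15.4 and 16.7 CPM in Ctrl and 117 and 84.2 CPM in TKO in other basal cells (-1.37 ± 0.11 (SE), edgeR adjusted p = 0.00305). The calls of Eif5a, Rps2 and Hmgb1 were lost without Ctrl 2.

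Against G2 and mitotic cells the same rule named, besides Cenpa and Ccnb2, Pttg1, Ptms and Hmgb1 with the higher effect in S phase cells. Pttg1, securin, was 29.1 and 29.4 CPM in Ctrl and 58.3 and 53.2 CPM in TKO in S phase cells and 186 and 184 CPM in Ctrl and 169.6 and 158 CPM in TKO in G2 and mitotic cells (1.10 ± 0.085 (SE), edgeR adjusted p = 0.000127). With the lower effect stood Ccnd1, 2410018L13Rik and 3 genes known from fibroblasts, Col1a1, Col3a1 and Dlk1. Col1a1 was 0.894 and 2.08 CPM in Ctrl and 54.8 and 1.94 CPM in TKO in G2 and mitotic cells, high in TKO 1 alone, and without called doublets Col3a1 and Dlk1 lost the call, that of Dlk1 also without TKO 1.

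Of 15 interferon and antiviral genes measured 6 passed the filter on low counts, and of these edgeR called 3 higher and 0 lower in TKO S phase cells and DESeq2 called 1. Mx1, with 3 and 3 UMIs in Ctrl and 21 and 21 UMIs in TKO, passed the filter only through the TKO libraries, so the count is partly set by the filter and is given as a description. Ifih1, a sensor of double-stranded RNA, was 2.92 and 3.83 CPM in Ctrl and 6.84 and 7.17 CPM in TKO (log2 1.06 ± 0.27 (SE), edgeR adjusted p = 0.0487). Bst2, tetherin, was 1.65 and 1.01 CPM in Ctrl and 6.28 and 16.8 CPM in TKO (log2 3.08 ± 0.57 (SE), edgeR adjusted p = 0.0196), and Mx1, an antiviral GTPase, was 0.292 and 0.338 CPM in Ctrl and 1.69 and 2.01 CPM in TKO (log2 2.51 ± 0.53 (SE), edgeR adjusted p = 0.0292). The levels were low in both groups, the Ifih1 and Mx1 calls were lost with DESeq2 and without Ctrl 1, Ctrl 2 or TKO 2 (Ifih1 under 12 of 15 alternatives in all, other scalings and thinned cells included), and the Bst2 call without Ctrl 1 or Ctrl 2, with log2 of Bst2 at 2.19 without TKO 2. Immune markers were highest in TKO 1 (50.9 CPM summed), and their part in these values was not tested.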

How the data were processed

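The series holds 4 libraries of sorted embryonic epidermal cells made with the 10x 3′ v3 kit, 2 Ctrl and 2 TKO, grouped by GEO's labels. The authors deposited filtered matrices whose values are raw UMI counts, with GRCm39 named as build in the submitters' processing notes and Cell Ranger 7.1.0 in the matrix headers (the version in the study's methods differs). The matrices hold 56980 genes, 293 symbols shared by several identifiers, and 5643, 5785, 3804 and 4557 barcodes. Nothing was corrected for free RNA, and doublet calls (scanpy 1.11.5, expected rate 0.8% per 1000 barcodes) were kept in the main result. The members, gene lists and tests were chosen with earlier results of these data known.

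The counts of all cells of 1 class and library were added up gene by gene. Genes passing edgeR's expression filter were tested with TMM scaling and the quasi-likelihood test (edgeR 4.0.16, limma 3.58.1, R 4.3.3), with Benjamini-Hochberg adjustment over all genes tested and a threshold of 0.05. Differences of the genotype effect between classes used 1 model with each library as a block. The share of basal cells was compared with an exact permutation test (scipy 1.17.1). The steps were tested on simulated counts. Chi-square per degree of freedom between replicates was 9.31 in Ctrl and 13.3 in TKO, so no pair agreed within sampling noise. DESeq2 1.42.0, other filters, thinning, equal cell numbers and leaving out each library were alternatives. Genes named are those of the rule and the 3 targeted genes; among calls at 20 CPM or more, the 10 of each direction with the largest log2 change; called list members and up to 4 others a list; in each difference test the 5 of each direction with the smallest p; and the 10 with the largest ratio of S phase to other basal cells in Ctrl at 20 CPM or more.
Gene positions are from GENCODE vM39, in which 744 genes of the matrices had no entry.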

Additional observations from a re-analysis of the deposited data

Results flagged for a closer look

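The genotype effect in S phase cells differed from that in another class of basal cells, by the edgeR test of the difference itself, for the named genes that follow, each given as the log2 effect in S phase cells minus that in the other class.

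Against other basal cells the effect was lower in S phase cells for 8 of 19 p53 targets tested, against 1.28% of all genes, and for the p21 gene Cdkn1a. The values were Trp53inp1 by -1.18, Fas by -1.13, Polk by -1.01, Zmat3 by -0.9, Ccng1 by -0.88, Sesn2 by -0.78, Cdkn1a by -0.67, Ei24 by -0.55 and Bax by -0.41. It was also lower for Gm20275 by -1.52, the protease inhibitor gene Serpine2 by -1.37, Ccnd1 by -1.03, the exocyst gene Exoc4 by -0.87, Brca1 by -0.86, Sox5 by -0.8, the nuclear RNA Malat1 by -0.68 and Atf7ip by -0.42. The effect was higher in S phase cells for Penk by 1.17, Cxcl14 by 0.53, Eif5a by 0.44, Epcam by 0.42, the chromatin protein gene Hmgb1 by 0.32 and the ribosomal protein gene Rps2 by 0.29. Trp53inp1, Ccng1, Ccnd1, Exoc4, Malat1, Serpine2, Gm20275, Penk and Cxcl14 kept the call under every alternative run. Without Ctrl 2 it was lost for Fas, Polk, Zmat3, Sesn2, Cdkn1a, Ei24, Bax, Brca1, Sox5, Atf7ip, Eif5a, Epcam, Hmgb1 and Rps2. It was also lost with thinned cells for Fas, Sesn2, Ei24, Brca1, Atf7ip and Epcam, without Ctrl 1 for Fas, Sesn2, Bax and Atf7ip, without TKO 1 for Sesn2, without TKO 2 for Fas, Sesn2 and Sox5, and with as many other basal cells as S phase cells for Sesn2 and Cdkn1a.

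Against G2 and mitotic cells the effect was higher in S phase cells for Cdkn3 by 1.67, Ccnb2 by 1.53, Cenpa by 1.52, the securin gene Pttg1 by 1.1, Cdc20 by 0.9, the parathymosin gene Ptms by 0.88, Epcam by 0.61, Hmgb1 by 0.45 and H2az1 by 0.32. It was lower for Ccnd1 by -1.02, E2f1 by -1.03 and 2410018L13Rik by -1.31, and for Dlk1 by -4.21, Col1a1 by -3.75 and Col3a1 by -3.57. The E2f1 difference was lost with thinned cells and without Ctrl 1, Ctrl 2 or TKO 1, that of H2az1 without TKO 1 or TKO 2, that of Epcam without TKO 1 and that of Cdkn3 without Ctrl 1. Dlk1, Col1a1 and Col3a1 were high in the G2 and mitotic cells of TKO 1 alone, and Dlk1 and Col3a1 lost the call without called doublets, Dlk1 also without TKO 1. Without called doublets the differences were -2.20, -2.87 and -1.80 for Dlk1, Col1a1 and Col3a1, all 3 were also smaller by over 0.6 on the log2 scale without TKO 1, and with thinned cells that of Cdkn3 was 2.70.

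The gate genes of G2 and mitosis summed to 112, 127.5, 160.2 and 143 CPM in S phase cells of Ctrl 1, Ctrl 2, TKO 1 and TKO 2, and their part in these differences was not tested.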

How the results depend on the processing

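The count of genes called between genotypes in S phase cells was 1739, and 3281 with no expression filter, 752 with cells thinned to 5000 UMIs and 442 to 2837 with 1 library left out (455 without Ctrl 1, 442 without Ctrl 2, 2282 without TKO 1, 2837 without TKO 2). DESeq2 called 1412. Called list members numbered 58 of 309, and 122 with no filter, 34 thinned and 24 to 100 with 1 library left out (31 without Ctrl 1, 24 without Ctrl 2, 88 without TKO 1, 100 without TKO 2). Differences from other basal cells numbered 352, and 1265 with no filter, 204 thinned, 216 with as many comparison cells as S phase cells, 800 without called doublets and 29 to 676 with 1 library left out. Differences from G2 and mitotic cells numbered 158, and 425 with no filter, 90 thinned, 383 without called doublets and 43 to 227 with 1 library left out. Apart from the fewer UMIs, cells, genes or libraries in an alternative's own construction, the cause was not tested.

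The log2 difference of Suv39h2, 0.10, was -0.11 thinned and -0.070 to 0.26 with 1 library left out (-0.070 without TKO 1). For 116 effects of named genes (a gene counts once for each comparison), of 1497 values under alternatives 1322 kept direction and call, 173 lost the call and these 2 reversed. The difference in the S phase share, 8.68 points, ranged as a share of basal cells from 4.71 (S phase sum of at least 4) to 13.2 (no limit on mitotic genes), and from 6.35 to 11.01 with 1 library left out, always higher in TKO. No alternative varied the limits on Krt5, Krt14 and Krt15 or on the hair follicle genes, which set the basal cells. As a share of all cells past the filters, an alternative added after seeing the data, it was 2.97 points.

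Replicate numbers are shared between groups, but nothing ties them to a litter or day, and deviations of same-numbered libraries correlated at -0.119. With the replicate block 1729 genes were called, and H2az1, E2f1, Ccnd2, Brca2, Bard1, Polk and Ifih1 were not among them. With crossed pairs, chosen after seeing the data, 2590 were called.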
